A study of Mus musculus with 16 samples.

Results

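The genes described here are the nuclear-encoded subunits of the mitochondrial oxidative phosphorylation machinery, measured by poly-A RNA-seq in mouse prostate. They were chosen by symbol and level. The symbols begin with the stems used for complex I (Nduf), complex III (Uqcr), complex IV (Cox4 to Cox8) and complex V (Atp5). Nduf had to be followed by a, b, c, s or v and a number, so assembly factors such as Ndufaf1 do not match. The mean log2 value over the 16 libraries had to come to about 10 or more after taking it out of log2. The symbols matched 82 of 29535 rows, and 76 passed the level, of 16506 genes that passed it in all. Of these 76 members, 35 belong to complex I, 8 to complex III, 14 to complex IV and 15 to complex V, and 4 carry such a symbol without being a subunit (Atp5s, Atp5sl, Cox7a2l and Ndufa4l2). Ndufa4 was counted in complex IV despite its symbol. Just inside the level stood Cox4i2, Ndufa4l2 and Atp5g2, with means of 4.06, 4.31 and 5.19 log2. Just outside it stood Atp5l2, Atp5l-ps1 and Cox8b, with 2.71, 2.58 and 2.46 log2, followed by Cox6a2 at 2.23, Cox8c at 1.77 and Cox7b2 at 1.55 log2. Subunits encoded in the mitochondrial genome were not analysed here.

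The libraries came from prostates of 12-month-old mice on a mixed 129/SvImJ and C57Bl/6J background, either homozygous mutant (-/-) or wild type (+/+) for 1 gene. The mice received finasteride, an inhibitor of the enzyme that converts testosterone to dihydrotestosterone, or vehicle. There were 5 libraries from finasteride-treated mutants, 3 from vehicle-treated mutants, 5 from finasteride-treated wild types and 3 from vehicle-treated wild types. Whether the libraries come from separate animals is not in the labels, and the p-values can speak only for the spread among these libraries. Among luminal epithelial markers, Krt8 lay between 12.05 and 12.93 log2 in all 16 libraries. Krt8 cannot tell prostate from other epithelium, so the prostate label was not checked by it. Summed seminal vesicle secretory markers varied widely, for example from 9.56 to 21.44 log2 within the vehicle-treated wild types. The summed level of 5 luminal markers lay between 15.33 and 15.69 log2 in finasteride-treated mutants, 16.44 and 16.51 in vehicle-treated mutants, 17.77 and 18.49 in finasteride-treated wild types, and 18.24 and 18.47 in vehicle-treated wild types. The sum differed between groups through the androgen-regulated secretory gene Pbsn, at 10.35 to 11.46 log2 in finasteride-treated mutants, 15.66 to 15.73 in vehicle-treated mutants, 17.50 to 18.32 in finasteride-treated wild types and 18.08 to 18.31 in vehicle-treated wild types. Over all 5 luminal markers the median fold change lay between -0.16 and 0.20 log2 in the 4 comparisons. On finasteride, 2 of the 5 were higher in mutants than in wild types and 2 were lower, against 33.2% and 30.4% of all genes. Epcam was between 13.65 and 14.51 log2 in finasteride-treated mutants, against 13.17 to 13.51 in finasteride-treated wild types. Krt18 went the other way, at 13.34 to 13.55 against 13.83 to 14.40 log2.

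Oxidative phosphorylation couples the oxidation of NADH and succinate to ATP synthesis in the inner mitochondrial membrane. Complex I takes electrons from NADH, complex III passes them to cytochrome c, complex IV hands them to oxygen, and complex V uses the resulting proton gradient to make ATP. Most of the subunits are encoded in the nucleus and imported, and complex IV has isoform pairs of which one member is general and the other is typical of heart and skeletal muscle or of testis. Prostate luminal epithelium is known for a metabolism that secretes citrate rather than oxidizing it fully.

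The promoters of the members on which the results turn are printed here, next to that of a general subunit. Sequences are from RefSeq on GRCm38.p6, run from 250 bases before to 50 bases after the annotated start, and are given 5′ to 3′ on the gene's strand. Cox7a1, Cox7a2 and Cox6b2 are shown as the muscle, general and testis isoforms that the complex IV results turn on, and Cox7a2l as the member with the lowest interaction. Cox6a1 is shown as the first in a ranking of general-subunit promoters, with those on 1 chromosome left out. The ranking went by how many of the NRF1, ETS and YY1 motifs a promoter held, then by total matches, then by name. Capitals mark motif matches on either strand.
Cox7a1, chr7:30183921-30184220, plus strand: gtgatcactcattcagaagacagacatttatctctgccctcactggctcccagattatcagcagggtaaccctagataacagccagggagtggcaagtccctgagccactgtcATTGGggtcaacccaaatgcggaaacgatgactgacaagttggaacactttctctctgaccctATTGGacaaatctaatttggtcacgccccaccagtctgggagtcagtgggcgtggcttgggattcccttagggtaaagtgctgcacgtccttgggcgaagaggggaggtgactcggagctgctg
Cox7a2, chr9:79759804-79760103, minus strand: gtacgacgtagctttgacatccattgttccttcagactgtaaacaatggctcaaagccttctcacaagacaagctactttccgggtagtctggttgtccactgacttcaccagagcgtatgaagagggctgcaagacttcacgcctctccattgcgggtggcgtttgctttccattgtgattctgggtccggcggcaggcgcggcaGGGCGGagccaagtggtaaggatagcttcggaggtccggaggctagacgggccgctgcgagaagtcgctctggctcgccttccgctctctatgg
Cox7a2l, chr17:83514284-83514583, minus strand: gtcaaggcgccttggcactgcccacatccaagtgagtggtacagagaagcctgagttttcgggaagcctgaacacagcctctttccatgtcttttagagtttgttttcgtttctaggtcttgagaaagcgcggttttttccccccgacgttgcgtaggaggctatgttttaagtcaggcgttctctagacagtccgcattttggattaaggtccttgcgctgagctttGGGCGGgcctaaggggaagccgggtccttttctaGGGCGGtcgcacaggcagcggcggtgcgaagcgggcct
Cox6b2, chr7:4753045-4753344, minus strand: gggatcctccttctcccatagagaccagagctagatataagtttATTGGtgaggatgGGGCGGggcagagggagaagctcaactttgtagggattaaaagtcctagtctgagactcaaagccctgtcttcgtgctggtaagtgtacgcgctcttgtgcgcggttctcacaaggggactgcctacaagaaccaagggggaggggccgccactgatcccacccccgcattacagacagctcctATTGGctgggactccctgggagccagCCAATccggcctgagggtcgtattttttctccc
Cox6a1, chr5:115348909-115349208, minus strand: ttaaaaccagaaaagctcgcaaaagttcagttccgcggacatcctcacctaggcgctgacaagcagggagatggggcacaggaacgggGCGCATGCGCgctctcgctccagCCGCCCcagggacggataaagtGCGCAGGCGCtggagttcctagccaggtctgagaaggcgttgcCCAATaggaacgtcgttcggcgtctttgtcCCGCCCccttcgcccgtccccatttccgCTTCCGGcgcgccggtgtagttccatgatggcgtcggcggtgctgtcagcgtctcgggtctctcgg
Cox7a1 held 2 matches to the CCAAT box and none to the other motifs searched. Cox6a1 held 2 NRF1 matches, 1 ETS match, 1 CCAAT box and 2 GC boxes. Cox6b2 held 3 CCAAT boxes and 1 GC box, Cox7a2l held 2 GC boxes, and Cox7a2 held 1.

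The table had a promoter for 58 of 69 general subunits, meaning subunits that are not tissue isoforms, with 63 promoters in all because some have more than 1 start. Each of 7 motifs was searched on both strands and set against 32851 promoters of the same length. The NRF1 motif, which is GCGCA, any base and GCGC, was in 25.4% of the general-subunit promoters and 4.6% of all promoters. The ETS motif CCGGAAG was in 22.2% and 8.86%, and the YY1 motif AAGATGGCG in 11.1% and 1.4%. The shares lay closer for the CCAAT box CCAAT, at 39.7% and 37.4%, and for the GC box GGGCGG, at 34.9% and 35.7%. The TATA box TATAAA was in 9.52% and 13.6%, and the androgen receptor motif AGAACA in 14.3% and 19.0%. A match says only that these letters stand in the window.

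The deposited values are normalized and on a log scale taken as base 2, with no counts or depth. Summed out of log2, the libraries of finasteride-treated mutants totalled 24.07 to 24.16 log2 and the others 24.31 to 24.55 log2. With all totals set equal, the median log2 fold change over all genes was 0.24 for finasteride in mutants, 0.39 for mutants against wild types on finasteride, -0.13 for finasteride in wild types and 0.35 for the interaction. On the deposited scale these medians were -0.01, 0.01, -0.02 and -0.02. Quantile normalization gave an interaction median of -0.16, so fold changes that involve finasteride are relative to the deposited scale. In 5 libraries the values could be written as a weighted mix of 2 others of the same group, with a residual of 0.0764 to 0.0968 log2. These were replicates 3 and 4 of the finasteride-treated mutants, replicate 3 of the vehicle-treated mutants, replicate 4 of the finasteride-treated wild types and replicate 3 of the vehicle-treated wild types. Results are therefore given with all 16 libraries and with the 11 others. The 11 hold only replicates 1 and 2 of each vehicle group. They hold replicates 1, 2 and 5 of the finasteride-treated mutants and replicates 1, 2, 3 and 5 of the finasteride-treated wild types. A call lost with the 11 libraries can therefore come from the smaller groups. Replicate 2 of the finasteride-treated mutants stood furthest from its group, with a residual of 0.402 log2. In bulk tissue, fewer cells of a type and less RNA per cell cannot be told apart.

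In every comparison a smaller share of the members than of all genes passed the test on the deposited scale. The test was limma, with a Benjamini-Hochberg adjusted p under 0.05 over all genes. In mutants against wild types on vehicle, 5 of 76 members (6.58%) passed, against 32.1% of all genes. All 5 were higher and 0 were lower, against 14.6% of all genes higher and 17.5% lower. In finasteride-treated against vehicle-treated wild types, 14 members (18.4%) passed, 12 higher and 2 lower, against 40.1% of all genes, 18.4% higher and 21.7% lower. In finasteride-treated against vehicle-treated mutants, 10 members (13.2%) passed, 3 higher and 7 lower, against 48.4%, 25.7% higher and 22.8% lower. In mutants against wild types on finasteride, 25 members (32.9%) passed, 11 higher and 14 lower, against 63.6%, 33.2% higher and 30.4% lower. Across these 4 comparisons 31 members (40.8%) passed at least once, against 80.1% of all genes, and 45 never did. Leaving aside mutants against wild types on finasteride, 21, 23 and 14 members, in the same order, had an unadjusted p under 0.05, against 42.2%, 49.4% and 55.0% of all genes. The groups did not overlap for 41 members (53.9%) in mutants against wild types on vehicle, where the same held for 55.8% of all genes. For finasteride in wild types this was 10 members (13.2%) against 35.6%, for finasteride in mutants 13 (17.1%) against 49.6%, and for mutants against wild types on finasteride 8 (10.5%) against 40.0%.

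**Figure D1:**
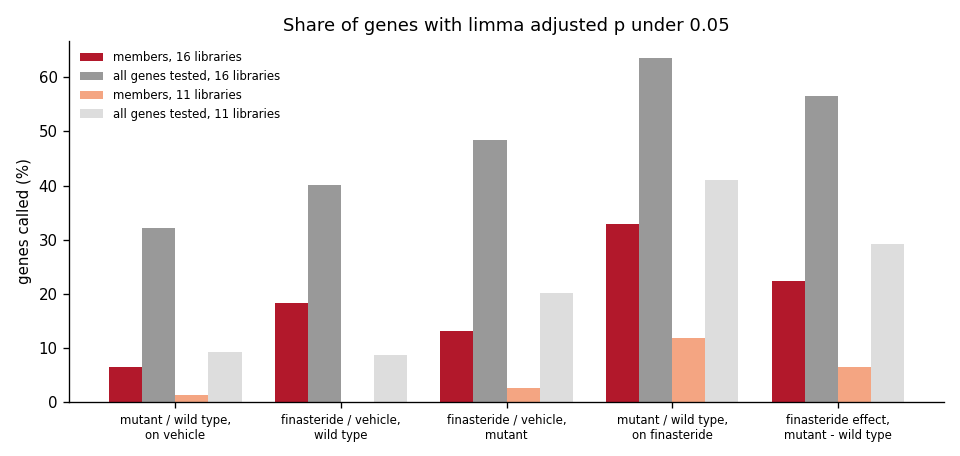
Percent of genes past the limma threshold in each comparison and in the interaction. Bars are for the 76 members and all 16506 genes tested, with 16 and with 11 libraries. The members' share is below that of all genes in every comparison, for example 13.2% against 48.4% for finasteride in mutants with 16 libraries.

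The members' fold changes were also smaller. Their median absolute log2 fold change was 0.18 for mutants against wild types on vehicle, 0.20 for finasteride in wild types, 0.10 for finasteride in mutants and 0.15 for mutants against wild types on finasteride. Over all genes these medians were 0.28, 0.29, 0.34 and 0.42. Only Cox7a1 and Cox6b2 passed a 2-fold difference in any of the 4 comparisons. The signed medians were 0.17, 0.17, -0.03 and -0.02 log2 for the members, against 0.00, -0.02, -0.01 and 0.01 for all genes. More members had positive than negative fold changes in vehicle-treated mutants against vehicle-treated wild types (64 of 76) and in finasteride-treated against vehicle-treated wild types (61 of 76), and most of these did not pass.

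**Figure D2:**
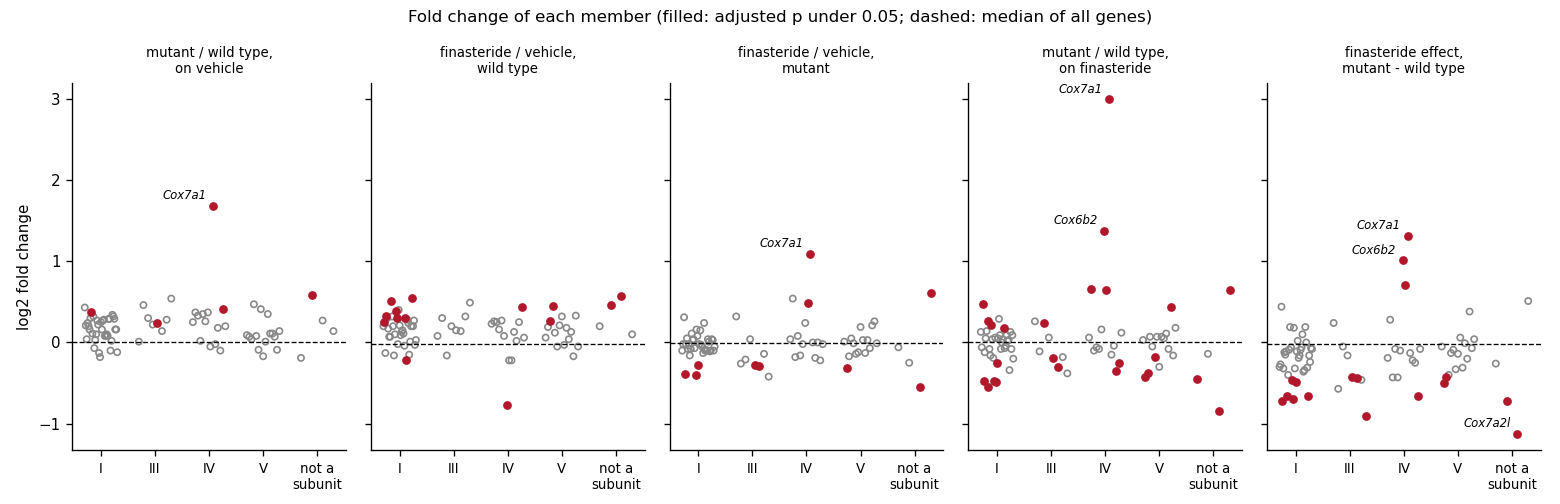
Log2 fold change of each member by complex in each of the 4 comparisons and in the interaction, with members past the threshold drawn apart from the others. Cox7a1 stands alone at the top in mutants against wild types, at 1.68 on vehicle and 2.99 on finasteride.

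The interaction, the finasteride effect in mutants minus that in wild types, passed for 17 members (22.4%), 3 higher and 14 lower, against 56.6% of all genes, 29.4% higher and 27.1% lower. At an unadjusted p under 0.05 there were 25 members, against 61.2% of all genes. Its median was -0.16 log2 over the members and -0.02 over all genes. Ndufa12, Ndufb2 and Cox7a2l rose with finasteride in wild types and fell with it in mutants. The shares lay close together in 2 alternatives: with equal totals 65.8% of the members and 66.8% of all genes passed for mutants against wild types on finasteride, and with only the vehicle groups fitted 33 members (43.4%), all higher, and 44.3% of all genes passed. The split by direction depended on the scaling. With equal totals, members past the threshold were 19 higher and 0 lower for finasteride in mutants, 49 higher and 1 lower for mutants against wild types on finasteride, 3 higher and 5 lower for finasteride in wild types, and 14 higher and 1 lower for the interaction. Over all 16506 genes the same splits, in this order, were 6715 and 1305, 9523 and 1503, 1563 and 4600, and 7078 and 1510. With quantile normalization the members' first split was 6 higher and 2 lower, their second 19 and 11, and their interaction 8 and 12. Over all genes these were 3295 and 4651, 4306 and 6085, and 3651 and 5549.

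Single libraries also moved these counts. Without the 5 mixture-like libraries, 1 member passed for mutants against wild types on vehicle, 0 for finasteride in wild types, 2 for finasteride in mutants, 9 for mutants against wild types on finasteride and 5 for the interaction, while 9.27%, 8.71%, 20.2%, 41.0% and 29.3% of all genes did. Beside the limma count of 0, 10 members had an unadjusted p under 0.05, against 30.4% of all genes. Without replicate 2 of the finasteride-treated mutants the count was 17 for mutants against wild types on vehicle, 23 for finasteride in wild types, 17 for finasteride in mutants and 31 for the interaction. Without replicate 2 of the finasteride-treated wild types it was 10 for mutants on vehicle and 28 for finasteride in wild types. For finasteride in wild types it was 3 without replicate 1 of the vehicle-treated wild types, 8 without their replicate 3 and 9 without replicate 4 of the finasteride-treated wild types. For mutants against wild types on vehicle, leaving out any 1 vehicle library other than replicate 1 of the mutants gave 2 or 3. For finasteride in mutants, leaving out replicate 2 or 3 of the vehicle-treated mutants gave 6.

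Complex I is the NADH dehydrogenase. Of its 35 members, 1 rose in vehicle-treated mutants against vehicle-treated wild types, with a median over the complex of 0.16 log2. With finasteride in wild types 7 rose and 1 fell, and with finasteride in mutants 0 rose and 3 fell, of 5 with an unadjusted p under 0.05. In mutants against wild types on finasteride, 4 rose and 5 fell, with a median of 0.02 log2. The shares called in the 4 comparisons were 2.86%, 22.9%, 8.57% and 25.7%, against 32.1%, 40.1%, 48.4% and 63.6% of all genes. With equal totals 8 rose and 0 fell for finasteride in mutants, and 24 rose and 0 fell for mutants against wild types on finasteride. The median in the second was 0.41 log2, against 0.39 over all genes.

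Ndufs1, the large iron-sulfur subunit of the electron-transfer arm, measured 10.12, 10.05, 10.23, 10.14 and 10.27 in finasteride-treated mutants, 10.26, 10.30 and 10.24 in vehicle-treated mutants, 9.87, 9.96, 9.93, 10.04 and 10.10 in finasteride-treated wild types, and 10.18, 10.21 and 10.17 in vehicle-treated wild types (all log2). Every finasteride-treated wild type lay below every vehicle-treated wild type. Ndufs1 fell with finasteride in wild types by 0.21 log2 (SE 0.0635, adjusted p = 0.0175), and was higher in mutants than in wild types on finasteride, by 0.18 ± 0.055 (SE, adjusted p = 0.00838). With the 11 libraries the adjusted p values were 0.141 and 0.112. Ndufv1, which binds NADH, passed in none of the comparisons, with fold changes of 0.16, 0.27, 0.03 and -0.08 log2 for mutants on vehicle, finasteride in wild types, finasteride in mutants and mutants on finasteride. The same order holds wherever 4 fold changes of a gene stand together. Of the 7 nuclear core subunits that carry the catalytic centres, 1 rose and 1 fell with finasteride in wild types, and the one that rose was Ndufs7.

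Ndufs7, the core subunit next to the quinone site, measured 10.03, 10.72, 9.86, 10.09 and 9.93 in finasteride-treated mutants, 10.24, 10.19 and 10.26 in vehicle-treated mutants, 10.79, 10.12, 10.40, 10.51 and 10.49 in finasteride-treated wild types, and 9.75, 10.08 and 9.91 in vehicle-treated wild types log2. All 5 finasteride-treated wild types lay above the 3 vehicle-treated ones. The difference was 0.55 ± 0.167 log2 (SE, adjusted p = 0.0164, 0.145 with 11 libraries). In finasteride-treated mutants, replicate 2 lay far above the other 4.

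Ndufa6, an accessory subunit of the same arm, measured 10.57, 11.15, 10.54, 10.80 and 10.76 in finasteride-treated mutants, 10.97, 10.95 and 10.85 in vehicle-treated mutants, 11.46, 11.03, 11.39, 11.31 and 11.39 in finasteride-treated wild types, and 10.68, 10.96 and 10.79 in vehicle-treated wild types log2. It was higher with finasteride in wild types, by 0.51 ± 0.125 (SE, adjusted p = 0.0053), and lower in mutants than wild types on finasteride, at -0.55 ± 0.108 (SE, adjusted p = 0.000404). The 2 groups on finasteride overlapped through replicate 2 of the mutants and replicate 2 of the wild types. The second difference still passed with 11 libraries, at -0.49 (adjusted p = 0.0262), and came to -0.17 with equal totals (adjusted p = 0.22).

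Ndufb2, an accessory subunit of the membrane arm, measured 7.91, 8.30, 7.90, 8.15 and 8.31 in finasteride-treated mutants, 8.53, 8.51 and 8.51 in vehicle-treated mutants, 8.51, 8.50, 8.63, 8.62 and 8.72 in finasteride-treated wild types, and 8.17, 8.41 and 8.31 in vehicle-treated wild types log2. Finasteride-treated mutants lay below vehicle-treated mutants in every library, and finasteride-treated wild types lay above vehicle-treated wild types in every library. The 2 effects were -0.40 ± 0.104 in mutants (SE, adjusted p = 0.00485) and 0.30 ± 0.104 in wild types (SE, adjusted p = 0.0317). Their difference was -0.70 ± 0.146 log2 (SE, adjusted p = 0.000883, 0.0413 with 11 libraries). With equal totals it was -0.33 (adjusted p = 0.13). Ndufb2 overlaps Braf on the other strand, and Ndufs1, Ndufb5, Ndufb11, Uqcrc2, Cox5a, Atp5a1 and Ndufa4l2 likewise overlap another gene. The strand use of the counting is not given in the sources used here, so the levels of these genes are uncertain.

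Ndufa12, an accessory subunit, followed the same order of means, with effects of -0.39 ± 0.119 in mutants (SE, adjusted p = 0.0147) and 0.33 ± 0.119 in wild types (SE, adjusted p = 0.0374). Its groups overlapped in both. Finasteride-treated mutants reached up to 8.35 and vehicle-treated mutants down to 8.31 log2. Finasteride-treated wild types reached down to 8.32 and vehicle-treated wild types up to 8.42 log2. The difference of the 2 effects was -0.72 ± 0.169 log2 (SE, adjusted p = 0.00215, 0.0767 with 11 libraries, 0.117 with equal totals). Ndufb4, another accessory subunit, was lower in mutants than wild types on finasteride, at -0.49 ± 0.18 log2 (SE, adjusted p = 0.0259, 0.162 with 11 libraries). Its difference ran to -1.14 with quantile normalization and -0.11 with equal totals (adjusted p = 0.632). Ndufa5, which sits in the electron-transfer arm, was the complex I member that rose in vehicle-treated mutants. It measured 9.30, 9.43 and 9.43 in vehicle-treated mutants, and 9.01, 9.04 and 9.0 in vehicle-treated wild types, with no overlap, and the difference was 0.37 ± 0.119 log2 (SE, adjusted p = 0.0263, 0.262 with 11 libraries).

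Complex III, the cytochrome bc1 complex, had 8 members. In vehicle-treated mutants against vehicle-treated wild types 1 rose, Uqcrc2, and all 8 fold changes were positive, with a median of 0.26 log2. With finasteride in wild types 0 passed, of 2 with an unadjusted p under 0.05 by limma. With finasteride in mutants 2 fell and the median was -0.24 log2, but 0 fell and the median was 0.02 with equal totals. In the interaction 3 were lower with a median of -0.43 log2, against 0 lower and -0.06 with equal totals. Of all genes, 32.1%, 40.1%, 48.4% and 56.6% passed in the same order, each a larger share than of the 8 members.

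Uqcrfs1, the Rieske iron-sulfur protein, measured 11.01, 11.27, 11.04, 11.14 and 11.21 in finasteride-treated mutants, 11.51, 11.29 and 11.49 in vehicle-treated mutants, 11.53, 11.34, 11.36, 11.47 and 11.46 in finasteride-treated wild types, and 11.32, 11.34 and 11.20 in vehicle-treated wild types log2. All 5 finasteride-treated mutants lay below the 3 vehicle-treated mutants and below the 5 finasteride-treated wild types. The differences were -0.29 ± 0.0757 log2 (SE, adjusted p = 0.00492) and -0.30 ± 0.0656 log2 (SE, adjusted p = 0.00108). With 11 libraries the adjusted p values were 0.169 and 0.0532, and with equal totals the differences were -0.04 and 0.08 log2.

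Uqcrc2, a core protein of the complex, measured 11.46, 11.77, 11.63, 11.57 and 11.75 in finasteride-treated mutants, 11.92, 11.88 and 11.95 in vehicle-treated mutants, 11.93, 11.70, 11.86, 11.84 and 11.82 in finasteride-treated wild types, and 11.60, 11.71 and 11.73 in vehicle-treated wild types log2. It was 0.24 ± 0.0829 log2 higher in mutants on vehicle (SE, adjusted p = 0.0403, 0.278 with 11 libraries). With finasteride in mutants it fell by 0.28 log2 (SE 0.0742, adjusted p = 0.00568, 0.177 with 11 libraries), and with equal totals the change was -0.02. Its partner Uqcrc1 passed in no comparison, with fold changes of 0.22, 0.20, 0.04 and 0.06 log2. Uqcrq, a small subunit next to cytochrome b, had the lowest interaction among the subunits, at -0.91 ± 0.297 log2 (SE, adjusted p = 0.0166, 0.198 with 11 libraries). Its values were 10.51, 11.51, 10.37, 10.87 and 10.66 in finasteride-treated mutants, 11.24, 11.11 and 11.26 in vehicle-treated mutants, 11.31, 10.65, 11.09, 11.28 and 11.47 in finasteride-treated wild types, and 10.67, 10.72 and 10.62 in vehicle-treated wild types, so the vehicle-treated mutants stood above 4 of the 5 finasteride-treated mutants.

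Complex IV, cytochrome c oxidase, held the members with the widest differences. Of its 14 members, 2 rose in mutants against wild types on vehicle, 2 rose with finasteride in mutants, and 4 rose and 2 fell in mutants against wild types on finasteride. With finasteride in wild types 1 rose and 1 fell. The medians over the complex, in this order, were 0.25, 0.00, 0.01 and 0.14 log2. The shares called were 14.3%, 14.3%, 42.9% and 14.3%, against 32.1%, 48.4%, 63.6% and 40.1% of all genes. With equal totals 9 rose and 0 fell for mutants against wild types on finasteride, 3 rose and 0 fell for finasteride in mutants, and 0 rose and 2 fell for finasteride in wild types. The median in the first of these was 0.39 log2, the same as over all genes.

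Cox7a1, the heart and skeletal muscle isoform of subunit VIIa, measured 6.95, 7.96, 7.39, 7.29 and 7.47 in finasteride-treated mutants, 6.13, 6.49 and 6.36 in vehicle-treated mutants, 4.49, 4.90, 4.19, 4.43 and 4.11 in finasteride-treated wild types, and 4.87, 4.43 and 4.63 in vehicle-treated wild types log2. No mutant library overlapped a wild-type library, and the finasteride-treated mutants lay above the vehicle-treated mutants. Cox7a1 was 3.21-fold higher in mutants than wild types on vehicle, at 1.68 ± 0.243 log2 (SE, adjusted p = 9.96e-05). On finasteride it was 7.94-fold higher, at 2.99 ± 0.188 log2 (SE, adjusted p = 4.27e-09). With finasteride it rose 2.12-fold in mutants, by 1.09 ± 0.217 log2 (SE, adjusted p = 0.000814), while in wild types the difference was -0.22 ± 0.217 log2 (SE, adjusted p = 0.443) and 0.25 log2 with quantile normalization.

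The interaction for Cox7a1 was 1.31 ± 0.307 log2 (SE, adjusted p = 0.00215). All of these calls were kept in each of 16 fits that left out 1 library, and with the 11 libraries the values were 1.66, 3.04, 1.15 and 1.38 log2 (adjusted p = 0.0215, 4.2e-05, 0.0387 and 0.049). With quantile normalization the interaction was 0.40 log2 (adjusted p = 0.326), while the differences between genotypes were 2.03 and 2.43 log2 and the finasteride effect in mutants was 0.66 log2, all past the threshold.

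Cox7a2, the general isoform of the same subunit, measured 10.15, 10.78, 10.48, 10.35 and 10.57 in finasteride-treated mutants, 10.45, 10.51 and 10.42 in vehicle-treated mutants, 10.77, 10.35, 10.51, 10.68 and 10.78 in finasteride-treated wild types, and 10.44, 10.55 and 10.47 in vehicle-treated wild types log2. All 4 groups overlapped. Its fold changes were -0.02, 0.13, 0.00 and -0.15 log2, with adjusted p between 0.212 and 0.987. The other muscle isoforms were under the level: Cox6a2 lay between 0.84 and 3.02 log2 and Cox8b between 0.80 and 3.35 log2 over the 16 libraries, and neither was tested. Their general counterparts Cox6a1 and Cox8a lay between 11.40 and 12.10 and between 11.67 and 12.39 log2. Cox8c and Cox7b2, isoforms typical of testis, were also under the level.

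**Figure D3:**
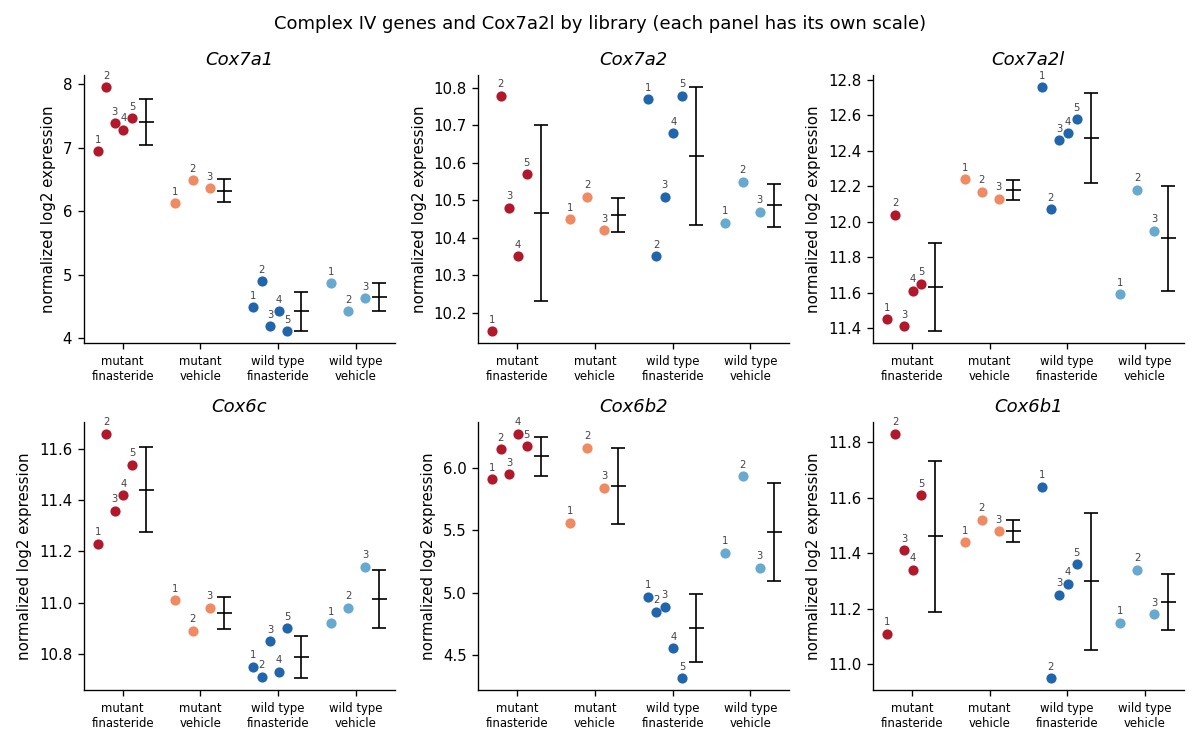
Log2 value of complex IV isoform genes and of Cox7a2l in each library, by group, with the mean and SD beside the points and replicate numbers on them. The 8 mutant libraries of Cox7a1 lie between 6.13 and 7.96 and the 8 wild-type libraries between 4.11 and 4.90, while Cox7a2 overlaps in all groups.

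Skeletal muscle and adipocyte markers also differed between some of the groups. The summed level of 14 skeletal muscle markers lay between 12.08 and 12.54 log2 in finasteride-treated mutants, 11.89 and 12.11 in vehicle-treated mutants, 11.56 and 12.56 in finasteride-treated wild types, and 11.50 and 11.75 in vehicle-treated wild types, most of it from Acta1. Of the 10 that were tested, 1 was higher and 6 were lower in mutants on vehicle, or 70.0% against 32.1% of all genes. The myosin heavy chain gene Myh1 measured 2.61, 1.75 and 2.65 log2 in vehicle-treated mutants, against 7.70, 6.70 and 7.29 in vehicle-treated wild types, the opposite order to Cox7a1. Acta1 had the same order as Cox7a1 there, at 12.03, 11.80 and 11.91 against 11.35, 11.24 and 11.20 log2. In finasteride-treated mutants Myh1 measured 6.06, 4.16, 5.78, 5.86 and 5.44 log2, above all vehicle-treated mutants. Ckm did likewise, at 8.85, 7.31, 8.56, 8.49 and 7.88 log2 against 6.56, 6.21 and 6.24. On finasteride 4 of the 10 were higher in mutants and 0 were lower, and 4 were higher with finasteride in mutants. These shares of 40.0% were below the 63.6% and 48.4% of all genes called in the same comparisons.

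Of 8 adipocyte markers, 3 were lower in mutants on vehicle, 8 were lower with finasteride in wild types, and 8 were higher in mutants against wild types on finasteride. These shares were 37.5%, 100% and 100%, against 32.1%, 40.1% and 63.6% of all genes called. With finasteride in mutants, the comparison in which Cox7a1 also rose, 4 were higher and 1 was lower, with a median of 1.60 log2. That was 62.5% of the markers, against 48.4% of all genes. Their sum lay between 11.10 and 11.46 log2 in finasteride-treated mutants, 10.56 and 11.04 in vehicle-treated mutants, 9.16 and 10.74 in finasteride-treated wild types, and 11.22 and 11.81 in vehicle-treated wild types. Of 5 brown adipocyte markers only 1, Ppara, reached the level for testing, and it passed in no comparison. Ucp1 lay between 0.62 and 2.85 log2 throughout. Cidea, also untested, measured 4.69, 3.43, 4.68, 4.07 and 4.30 log2 in finasteride-treated mutants, above the 2.33, 0.77 and 2.25 of vehicle-treated mutants. It measured 2.51, 3.76, 2.44, 0.39 and 3.42 log2 in finasteride-treated wild types, and 3.19, 4.34 and 4.13 in vehicle-treated wild types. Summed fibroblast markers lay between 13.91 and 14.25 log2 in finasteride-treated mutants, 13.55 and 13.73 in vehicle-treated mutants, 13.48 and 14 in finasteride-treated wild types, and 14.38 and 14.55 in vehicle-treated wild types. Seminal vesicle secretory markers ranged from 16.65 to 21.48, 16.61 to 17.91, 9.19 to 14.29 and 9.56 to 21.44 log2 in the same groups. The part of these cell types in the Cox7a1 and Cox6b2 differences was not tested.

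Cox6c, a general complex IV subunit with no muscle isoform, measured 11.23, 11.66, 11.36, 11.42 and 11.54 in finasteride-treated mutants, 11.01, 10.89 and 10.98 in vehicle-treated mutants, 10.75, 10.71, 10.85, 10.73 and 10.90 in finasteride-treated wild types, and 10.92, 10.98 and 11.14 in vehicle-treated wild types log2. The 5 finasteride-treated mutants lay above every other library. Cox6c rose with finasteride in mutants by 0.48 ± 0.087 log2 (SE, adjusted p = 0.000365) and was 0.65 ± 0.0754 log2 higher in mutants than wild types on finasteride (SE, adjusted p = 2.46e-06). In wild types finasteride gave -0.22 ± 0.087 log2 (SE, adjusted p = 0.0517), and the interaction was 0.71 ± 0.123 log2 (SE, adjusted p = 0.000214). With 11 libraries the 3 calls were kept, at 0.53, 0.67 and 0.68 log2 (adjusted p = 0.0189, 0.000896 and 0.019), and they were kept under both other scalings.

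Cox6b2, the testis isoform of subunit VIb, measured 5.91, 6.15, 5.95, 6.27 and 6.17 in finasteride-treated mutants, 5.56, 6.16 and 5.84 in vehicle-treated mutants, 4.97, 4.85, 4.89, 4.56 and 4.32 in finasteride-treated wild types, and 5.32, 5.93 and 5.20 in vehicle-treated wild types log2. On finasteride every mutant lay above every wild type, a difference of 1.37 ± 0.175 log2 or 2.59-fold (SE, adjusted p = 6.72e-06, 0.00202 with 11 libraries). With finasteride it fell in wild types by 0.77 log2 (SE 0.202, adjusted p = 0.00796, 0.0739 with 11 libraries, 0.259 with quantile normalization). The interaction was 1.01 ± 0.286 log2 (SE, adjusted p = 0.0076), but -0.00204 with quantile normalization. Its general counterpart Cox6b1 passed in no comparison, with fold changes of 0.26, 0.08, -0.02 and 0.16 log2 and values of 11.11, 11.83, 11.41, 11.34 and 11.61 in finasteride-treated mutants, 11.44, 11.52 and 11.48 in vehicle-treated mutants, 11.64, 10.95, 11.25, 11.29 and 11.36 in finasteride-treated wild types, and 11.15, 11.34 and 11.18 in vehicle-treated wild types.

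Cox8a, the general isoform of subunit VIII, measured 11.84, 12.39, 11.83, 12.11 and 11.96 in finasteride-treated mutants, 12.22, 12.29 and 12.22 in vehicle-treated mutants, 12.38, 12.04, 12.22, 12.36 and 12.38 in finasteride-treated wild types, and 11.67, 11.96 and 11.87 in vehicle-treated wild types log2. Both vehicle-treated mutants and finasteride-treated wild types lay wholly above vehicle-treated wild types, by 0.41 ± 0.133 log2 (SE, adjusted p = 0.028) and 0.44 ± 0.119 log2 (SE, adjusted p = 0.00912). With 11 libraries these had adjusted p of 0.183 and 0.112. Cox8a was lower in mutants than wild types on finasteride, at -0.25 ± 0.103 log2 (SE, adjusted p = 0.0463). That call was kept in 4 of 16 fits that left out 1 library, and the difference was 0.13 log2 with equal totals.

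Cox4i2, an isoform of subunit IV known from lung and hypoxic cells, measured 4.64, 4.30, 4.64, 4.62 and 4.48 in finasteride-treated mutants, 3.94, 3.91 and 4.12 in vehicle-treated mutants, 4.91, 3.75, 3.38, 3.46 and 3.90 in finasteride-treated wild types, and 3.43, 3.39 and 4.03 in vehicle-treated wild types log2, close to the level for testing. It was 0.66 ± 0.248 log2 higher in mutants than wild types on finasteride (SE, adjusted p = 0.031), and 0.03 log2 with quantile normalization. Replicate 1 of the finasteride-treated wild types lay above all the mutants. The general isoform Cox4i1 passed in no comparison, with fold changes of 0.25, 0.23, 0.04 and 0.06 log2 and values of 12.57, 13.48, 12.78, 12.79 and 12.94 in finasteride-treated mutants, 12.87, 12.90 and 12.84 in vehicle-treated mutants, 13.14, 12.47, 12.82, 12.89 and 12.93 in finasteride-treated wild types, and 12.59, 12.73 and 12.56 in vehicle-treated wild types. Cox6a1, the general counterpart of Cox6a2, measured 11.52, 12.08, 11.52, 11.71 and 11.64 in finasteride-treated mutants, 11.78, 11.91 and 11.87 in vehicle-treated mutants, 12.10, 11.40, 11.63, 11.80 and 11.92 in finasteride-treated wild types, and 11.49, 11.57 and 11.44 in vehicle-treated wild types log2 and passed in none either. Cox5a, a nuclear subunit next to the catalytic core, had fold changes of 0.33, 0.25, -0.18 and -0.10 log2, with limma adjusted p of 0.105, 0.139, 0.288 and 0.445.

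Complex V, the ATP synthase, had 15 members and 0 passed in mutants against wild types on vehicle, of 3 with an unadjusted p under 0.05 by limma. With finasteride 2 rose in wild types and 1 fell in mutants, and 1 rose and 3 fell in mutants against wild types on finasteride. These are 13.3%, 6.67% and 26.7% of the complex, against 40.1%, 48.4% and 63.6% of all genes. With equal totals 0 changed with finasteride in wild types, 6 rose and 0 fell with it in mutants, and 10 rose and 0 fell in mutants against wild types on finasteride. The median in the last of these was 0.42 log2, against 0.39 over all genes. The c ring genes, 3 in number, passed in no comparison and had medians between 0.01 and 0.21 log2. Atp5b, the catalytic beta subunit, measured 13.85, 14.13, 13.96, 13.93 and 13.97 in finasteride-treated mutants, 14.26, 14.31 and 14.25 in vehicle-treated mutants, 14.72, 14.13, 14.37, 14.36 and 14.40 in finasteride-treated wild types, and 14.15, 14.29 and 14.18 in vehicle-treated wild types log2. The finasteride-treated mutants lay below every vehicle-treated mutant, and at or below every finasteride-treated wild type. Their differences were -0.31 ± 0.11 log2 (SE, adjusted p = 0.0303, 0.261 with 11 libraries) and -0.43 ± 0.0951 log2 (SE, adjusted p = 0.00109, 0.0474 with 11 libraries). With equal totals both came to -0.05 log2. The alpha subunit gene Atp5a1 passed in none, at 0.09, 0.06, 0.01 and 0.03 log2. Atp5c1, the gamma subunit of the central stalk, was lower in mutants than wild types on finasteride, at -0.38 ± 0.0777 log2 (SE, adjusted p = 0.000538, 0.0398 with 11 libraries, 0.988 with equal totals, where the difference came to 0.00). Atp5k, a small membrane subunit, was 0.44 ± 0.12 log2 higher in the same comparison (SE, adjusted p = 0.00464, 0.0735 with 11 libraries).

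The 4 members that are not subunits included 2 of the clearer patterns. Cox7a2l, which links complexes III and IV into supercomplexes, measured 11.45, 12.04, 11.41, 11.61 and 11.65 in finasteride-treated mutants, 12.24, 12.17 and 12.13 in vehicle-treated mutants, 12.76, 12.07, 12.46, 12.50 and 12.58 in finasteride-treated wild types, and 11.59, 12.18 and 11.95 in vehicle-treated wild types log2. Finasteride-treated mutants lay below all vehicle-treated mutants and all finasteride-treated wild types. Cox7a2l rose with finasteride in wild types, by 0.57 ± 0.161 log2 (SE, adjusted p = 0.0119, 0.119 with 11 libraries), and fell with it in mutants by 0.55 log2 (SE 0.161, adjusted p = 0.0106, 0.165 with 11 libraries). In mutants against wild types on finasteride it was -0.84 ± 0.139 log2 (SE, adjusted p = 8.72e-05), or 0.557-fold, and -0.75 with 11 libraries (adjusted p = 0.0128). The interaction of -1.12 ± 0.228 log2 (SE, adjusted p = 0.000735) was the lowest among the 76 members, and it was -1.07 with 11 libraries (adjusted p = 0.0333), -0.82 with quantile normalization and -0.75 with equal totals.

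Atp5sl, known as a complex I assembly protein despite its symbol, measured 9.0, 9.25, 8.97, 9.14 and 9.06 in finasteride-treated mutants, 9.35, 9.28 and 9.37 in vehicle-treated mutants, 9.51, 8.96, 9.02, 9.36 and 9.24 in finasteride-treated wild types, and 8.76, 8.73 and 8.77 in vehicle-treated wild types log2. The vehicle-treated wild types were the lowest of the groups, and no library of vehicle-treated mutants or finasteride-treated wild types reached down to them. It was 0.58 ± 0.12 log2 higher in mutants on vehicle (SE, adjusted p = 0.00188, 0.0722 with 11 libraries) and 0.46 ± 0.107 log2 higher with finasteride in wild types (SE, adjusted p = 0.00359, 0.0903 with 11 libraries). Ndufa4l2, a hypoxia-induced relative of Ndufa4, was 0.61 ± 0.23 log2 higher with finasteride in mutants (SE, adjusted p = 0.0378, 0.315 with 11 libraries). It was 0.65 ± 0.199 log2 higher in mutants than wild types on finasteride (SE, adjusted p = 0.00961, 0.199 with 11 libraries). Both came close to 0 with quantile normalization, at 0.06 and 0.01 log2. Atp5s was lower in mutants than wild types on finasteride, at -0.45 ± 0.0995 log2 (SE, adjusted p = 0.00111, 0.0469 with 11 libraries), and -0.07 with equal totals.

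The general subunits moved together from library to library within the finasteride-treated groups and, to a smaller extent, within the vehicle-treated wild types. Their mean was 10.30 ± 0.19 log2 in finasteride-treated mutants (SD, n = 5), 10.34 ± 0.02 in vehicle-treated mutants (SD, n = 3), 10.33 ± 0.17 in finasteride-treated wild types (SD, n = 5) and 10.17 ± 0.08 in vehicle-treated wild types (SD, n = 3). Replicate 2 of the finasteride-treated mutants had the highest value of its group in 62 of 69 general subunits (89.9%), against 36.0% of all genes. Replicate 2 of the finasteride-treated wild types had the lowest of its group in 66 of 69 (95.7%), against 29.6% of all genes. The median deviation from the group's median was 0.35 log2 in the first of these and -0.28 log2 in the second. In the vehicle-treated mutants these deviations were 0.00, 0.03 and 0.00 log2. Among the vehicle-treated wild types, replicate 2 had the highest value in 52 of 69 general subunits (75.4%), against 41.4% of all genes. Their replicate 1 had the lowest in 50 of 69 (72.5%), against 38.1% of all genes. The deviations of these libraries were 0.08 and -0.09 log2. Their summed seminal vesicle markers were 9.56 and 21.44 log2.

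**Figure D4:**
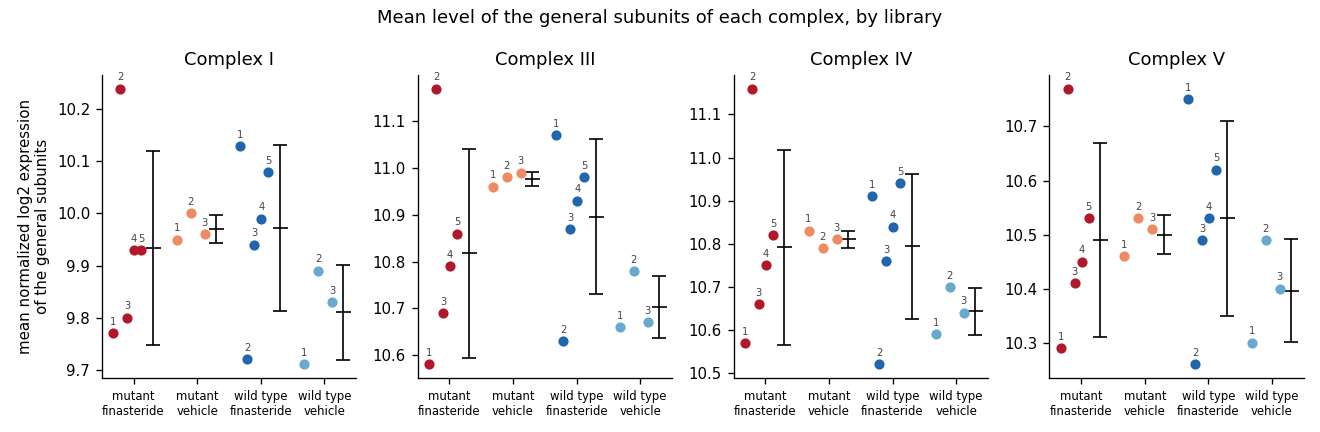
Mean log2 value of the general subunits of each complex in each library, by group, without the tissue isoforms. The mean and SD of the group stand beside the points and replicate numbers on them. In all 4 complexes replicate 2 is the highest of the finasteride-treated mutants and the lowest of the finasteride-treated wild types.

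Genes of other functions with short transcripts deviated the same way in replicates 1 and 2 of the finasteride-treated groups. The general subunits have short messages, with a median longest transcript of 861 bases against 3135 bases over all genes tested. Over 697 other genes with a longest transcript of at most 1000 bases, the median deviation was 0.25 log2 in replicate 2 of the finasteride-treated mutants and -0.15 log2 in replicate 2 of the finasteride-treated wild types. In replicate 1 of the finasteride-treated mutants it was -0.13 log2 for the general subunits and -0.11 for the other short genes, and in replicate 1 of the finasteride-treated wild types 0.14 and 0.12 log2. Tissue markers differed between these libraries too. Summed seminal vesicle markers were 16.65 log2 in replicate 2 of the finasteride-treated mutants, against 20.43 to 21.48 in the rest of that group. Summed adipocyte markers were 10.74 log2 in replicate 2 of the finasteride-treated wild types, against 9.16 to 9.55 in the rest. The order differed by group, as adipocyte markers were also highest (11.46) in replicate 2 of the finasteride-treated mutants. The part of transcript length or of tissue make-up in the deviations was not tested.

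**Figure D5:**
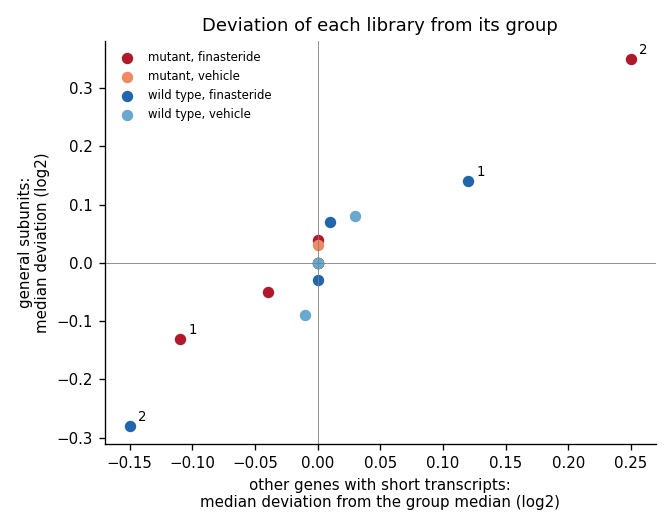
Median deviation from the group's median, in log2, for the 69 general subunits and for 697 other genes with short transcripts, in each library. The deviations are 0.35 and 0.25 in replicate 2 of the finasteride-treated mutants, and -0.28 and -0.15 in replicate 2 of the finasteride-treated wild types.

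Assembly factors build the complexes without staying in them. Of 32 tested, 2 rose and 16 fell in mutants against wild types on finasteride, with a median of -0.21 log2, so 56.2% were called against 63.6% of all genes. The counts were 0 and 8 with 11 libraries, 0 and 24 with quantile normalization, and 13 and 2 with equal totals, so the direction did not hold with equal totals. With finasteride in wild types 9 rose and 3 fell, with finasteride in mutants 2 rose and 4 fell, and in mutants on vehicle 2 rose and 5 fell, or 37.5%, 18.8% and 21.9% against 40.1%, 48.4% and 32.1% of all genes. Of 13 complex IV assembly factors, 8 fell and 0 rose in mutants against wild types on finasteride, and 2 fell and 2 rose with equal totals.

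Surf1, which helps insert heme into cytochrome c oxidase, measured 10.02, 10.10, 10.03, 10 and 10 in finasteride-treated mutants, 10.34, 10.40 and 10.35 in vehicle-treated mutants, 10.84, 10.37, 10.69, 10.63 and 10.61 in finasteride-treated wild types, and 10.05, 10.31 and 10.14 in vehicle-treated wild types log2. The finasteride-treated mutants lay below all vehicle-treated mutants, and the finasteride-treated wild types above all vehicle-treated wild types. The difference on finasteride was -0.60 ± 0.0742 log2 (SE, adjusted p = 5.08e-06, 0.00272 with 11 libraries, -0.22 log2 with equal totals, adjusted p = 0.0222). Coa5, another complex IV assembly factor, was lower in the same comparison, at -0.41 ± 0.0461 log2 (SE, adjusted p = 1.8e-06, 0.003 with 11 libraries), and -0.03 with equal totals. Nubpl, which supplies iron-sulfur clusters to complex I, was lower in mutants on vehicle, at -1.01 ± 0.163 log2 (SE, adjusted p = 0.000246, 0.0288 with 11 libraries) and 0.99 ± 0.145 log2 higher with finasteride in mutants (SE, adjusted p = 6.16e-05, 0.0142 with 11 libraries). Bcs1l, the chaperone that places the Rieske protein in complex III, was 0.43 ± 0.0796 log2 higher with finasteride in wild types (SE, adjusted p = 0.000909, 0.0506 with 11 libraries).

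Of 10 regulators of mitochondrial biogenesis, 4 rose in mutants on vehicle and 0 fell, 4 rose and 1 fell with finasteride in wild types, 0 rose and 3 fell with finasteride in mutants, and 2 rose and 4 fell in mutants on finasteride. In the same comparisons 32.1%, 40.1%, 48.4% and 63.6% of all genes were called. With equal totals the last 2 comparisons gave 1 higher and 0 lower, and 5 higher and 2 lower. Pprc1, a coactivator of the PGC-1 family, measured 9.27, 9.40, 9.36, 9.38 and 9.27 in finasteride-treated mutants, 9.75, 9.68 and 9.65 in vehicle-treated mutants, 10.37, 9.91, 10.29, 10.31 and 10.15 in finasteride-treated wild types, and 9.41, 9.72 and 9.59 in vehicle-treated wild types log2. On finasteride every mutant lay below every wild type, at -0.87 ± 0.0812 log2 (SE, adjusted p = 2.65e-07, 0.000404 with 11 libraries). In wild types Pprc1 rose with finasteride by 0.63 ± 0.0938 log2 (SE, adjusted p = 0.000198, 0.0292 with 11 libraries).

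Its relative Ppargc1a, which encodes PGC-1 alpha, measured 7.54, 7.14, 7.48, 7.35 and 7.38 in finasteride-treated mutants, 7.49, 7.12 and 7.30 in vehicle-treated mutants, 6.24, 6.99, 6.53, 6.31 and 5.91 in finasteride-treated wild types, and 7.88, 7.23 and 7.39 in vehicle-treated wild types log2. Finasteride-treated wild types lay below all other libraries, and Ppargc1a fell with finasteride in wild types by 1.10 log2 (SE 0.203, adjusted p = 0.000862, 0.0425 with 11 libraries). It was 0.98 ± 0.176 log2 higher in mutants than wild types on finasteride (SE, adjusted p = 0.000186, 0.0167 with 11 libraries). Esrra, the estrogen-related receptor that acts with these coactivators, was 0.46 ± 0.116 log2 higher in mutants on vehicle (SE, adjusted p = 0.00719, 0.132 with 11 libraries). Polrmt, the mitochondrial RNA polymerase, was 0.45 ± 0.114 log2 higher there (SE, adjusted p = 0.00724, 0.161 with 11 libraries).

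Complex II, succinate dehydrogenase, which takes electrons from succinate, had 4 genes tested. In mutants on vehicle 1 rose, Sdhb by 0.37 ± 0.137 log2 (SE, adjusted p = 0.0481, 0.276 with 11 libraries), and 1 fell, Sdha by 0.17 log2 (SE 0.0598, adjusted p = 0.0402, 0.291 with 11 libraries). Sdhd was lower in mutants than wild types on finasteride, at -0.40 ± 0.0966 log2 (SE, adjusted p = 0.0022, 0.0707 with 11 libraries). Atpif1, the inhibitor of complex V, was 0.40 ± 0.108 log2 higher in mutants on vehicle (SE, adjusted p = 0.0108, 0.178 with 11 libraries). Cycs, the mobile carrier cytochrome c, passed in no comparison, at 0.27, -0.21, -0.34 and 0.13 log2.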

How the data were processed

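The data are 1 table of normalized log2 expression values for 29535 genes in 16 mouse prostate libraries, as deposited by the authors; base 2 was inferred from the values and the normalization method is not given in the sources used here. Low values look shrunken, so fold changes of low genes may be understated; whether they are was not tested. Per the labels' protocols, libraries were poly-A selected, made with the Illumina TruSeq RNA kit and run on a HiSeq2000, and the submitters' processing notes name CASAVA 1.8.2, TopHat, Cufflinks, DESeq and DESeq2 and the build mm9. The deposited values hold no counts, so depth is unknown and no interval that needs it is given. Columns were matched to libraries by title, and the groups come from the labels. The name of the mutated gene and its level are not reported here.

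Genes with a mean log2 value matching about 10 out of log2 were kept, 16506 in all, and limma 3.58.1 (R 4.3.3) with a mean-variance trend was fitted to 4 group means over all 16 libraries. P-values were adjusted by Benjamini-Hochberg over all genes tested, with a threshold of 0.05. The fit was tested on simulated data. The members and gene lists were chosen with earlier results of these data known. Genes given with values were the complex IV tissue isoforms and their general counterparts, and 6 fixed subunits (Ndufs1, Ndufv1, Uqcrc1, Uqcrfs1, Cox5a, Atp5b). To these came the 3 highest and 3 lowest fold changes past the threshold in each comparison, and up to 2 genes of lowest p from each list. Uqcrc2, Ndufa5, Atp5a1, Atp5c1 and Atp5k were chosen after their values were seen. Alternatives were quantile normalization, equal totals, other level filters, a fit to the groups compared only, leaving out each library, and leaving out the 5 libraries that resembled mixtures of 2 others (weights over 0.2, residual under 0.1 log2, genes above 8 log2). Promoters came from RefSeq on GRCm38.p6, a build other than that of the files, and were matched by symbol.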

Additional observations from a re-analysis of the deposited data

Results flagged for a closer look

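In groups of 5 libraries, 4 of 50 gene and group combinations had a library past Dixon's critical value, and chance gives about 1 in 20. These were Ndufs7 at 10.72, Ndufv1 at 11.14 and Uqcrc1 at 11.97 log2, each high in replicate 2 of the finasteride-treated mutants, and Ndufa12 at 8.32 log2, low in replicate 2 of the finasteride-treated wild types. These 2 libraries are the ones in which the general subunits and other short genes stood highest and lowest.

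The finasteride effect differed between mutants and wild types, by limma's interaction term with the adjusted p under 0.05, for 17 members (22.4%), against 56.6% of all genes. The difference was positive for Cox7a1 (1.31 log2), Cox6b2 (1.01) and Cox6c (0.71). It was negative in complex I for Ndufa12 (-0.72), Ndufb2 (-0.70), Ndufa6 (-0.66), Ndufs7 (-0.66), Ndufb5 (-0.49) and Ndufb11 (-0.46). It was negative in complex III for Uqcrq (-0.91), Uqcrfs1 (-0.44) and Uqcrc2 (-0.43), and in complexes IV and V for Cox8a (-0.66), Atp5b (-0.50) and Atp5c1 (-0.42). Among the non-subunits it was -1.12 log2 for Cox7a2l and -0.72 for Atp5sl. With the 11 libraries that did not resemble mixtures, Cox7a1, Cox6c, Cox7a2l, Ndufb2 and Atp5sl passed, and with equal totals every negative difference lay nearer to 0.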

How the results depend on the processing

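No paired analysis was possible because the labels carry running numbers that pair no library across groups. Counts of members past the threshold, for mutants on vehicle, finasteride in wild types, finasteride in mutants, mutants on finasteride and the interaction, were 5, 14, 10, 25 and 17. They were 1, 0, 2, 9 and 5 without the 5 mixture-like libraries, where fewer libraries were fitted. Leaving out 1 library gave 2 to 17, 3 to 28, 6 to 17, 21 to 30 and 15 to 31. With equal totals finasteride in wild types gave 8, finasteride in mutants 19 and mutants on finasteride 50. Mutants on vehicle gave 3 without non-subunits and tissue isoforms, and 33, all higher, when only the vehicle groups were fitted; the cause was not tested. Of the named values, the Cox6b2 interaction turned to -0.00204 with quantile normalization, and Cox8a and Uqcrfs1 in mutants on finasteride turned to 0.13 and 0.08 log2 with equal totals; among values past the threshold of members named by the rule, no other changed sign under the alternatives run. Values that did not pass changed sign more often, as Cox7a1 for finasteride in wild types (0.25 log2 with quantile normalization), and with equal totals Ndufv1, Cox5a and Cox7a2 for mutants on finasteride (0.30, 0.28 and 0.23). Depth is unknown, so no limit by depth can be given.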
